A study of Mus musculus with 15 samples.

Results

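Chromatin accessibility was examined at Foxa2, Nkx6-1 and Rfx6, 3 genes for transcription factors of the insulin-producing β cell, in mouse pancreatic islets. Every peak that the authors' annotation gave to one of these genes was taken, with 1 row per position. This gave 20 positions over 4 tables, which merged into 6 regions of the 13858 in the series. These were 1 promoter per gene, 2 intergenic regions given to Nkx6-1, and 1 region in the last intron of Rfx6. The genes were chosen by their deposited log2 change and FDR between the genotypes after surgery, where their promoters were higher in βKO than in control islets. The values of that comparison are therefore given below as a description and support nothing.

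The assay was ATAC-seq, which reads out open chromatin through cuts made by the Tn5 transposase. Islets of 15 male mice aged 3 months were profiled. The βKO mice carried Arid1aFl/Fl, MIP-rtTA and TRE-Cre. The control mice carried Arid1aFl/Fl and MIP-rtTA without TRE-Cre. MIP-rtTA places a doxycycline-dependent activator under an insulin promoter, and mice were given doxycycline in drinking water, so that deletion was directed to β cells while the libraries came from whole islets. Arid1a encodes a subunit of the SWI/SNF complex, which moves and ejects nucleosomes. The groups were 4 βKO and 4 control mice at 6 days after partial pancreatectomy (PPx, the removal of part of the pancreas), and 3 βKO and 4 control mice before PPx. At the targeted gene itself, a peak in an exon of Arid1a was called in 3 of 4 βKO and 0 of 4 control libraries after PPx, and in 3 of 3 βKO and 0 of 4 control libraries before PPx, per the authors' deposited table. Whether it lies in the deleted part, and whether the gene product was lost, was not examined. A change in bulk islets can come from a different share of a cell type or from different openness per cell, and these cannot be told apart.

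FOXA2 is a forkhead protein that can bind closed chromatin, and it acts in the formation of the pancreas and in the mature islet. NKX6-1 is a homeodomain protein that maintains β cell identity and insulin secretion, and within the adult islet it is largely a β cell factor. RFX6 is a winged-helix protein needed for the formation of endocrine cells and for insulin release by mature β cells. FOXA2 and RFX6 are also made in other islet endocrine cells. A promoter peak marks open chromatin near the start of transcription, while intergenic and intronic peaks can be regulatory elements of the nearest gene or of another one.

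Each peak was 601 bp wide, and all coordinates are on mm10 (GRCm38). The Foxa2 promoter peak of the comparison after PPx lay at chr2:148046235-148046835. It was inside the gene, from 134 to 734 bases after the outermost RefSeq start, and upstream of 2 further starts that RefSeq places 1021 and 1505 bases into the gene. The Nkx6-1 promoter peak at chr5:101665097-101665697 ended 386 bases before the start of the gene. The Rfx6 promoter peak at chr10:51677568-51678168 covered the start itself, from 192 bases before it to 408 after it. Between the 4 tables the Foxa2, Nkx6-1 and Rfx6 promoter peaks were displaced by at most 138, 152 and 41 bases.

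The bases just upstream of the outermost start of Foxa2 and of the start of Nkx6-1 are shown because the promoter peaks lie beside them. Over the comparisons, the gap to the printed stretch ran from 2 bases (before PPx) to 140 bases for the Foxa2 peak. For the Nkx6-1 peak it ran from 16 to 168 bases, so neither stretch lies inside a promoter peak. Both are 250 bases from RefSeq (GRCm38.p6), written on the minus strand that carries the genes. The Foxa2 stretch is chr2:148046970-148047219 and that of Nkx6-1 is chr5:101664712-101664961. Capitals mark matches to the searched motifs on either strand.
Foxa2: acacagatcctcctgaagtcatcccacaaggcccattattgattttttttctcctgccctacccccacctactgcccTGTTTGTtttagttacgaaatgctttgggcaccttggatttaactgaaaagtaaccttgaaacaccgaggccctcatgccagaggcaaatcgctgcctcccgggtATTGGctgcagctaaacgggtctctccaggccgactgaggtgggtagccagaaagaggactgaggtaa
Nkx6-1: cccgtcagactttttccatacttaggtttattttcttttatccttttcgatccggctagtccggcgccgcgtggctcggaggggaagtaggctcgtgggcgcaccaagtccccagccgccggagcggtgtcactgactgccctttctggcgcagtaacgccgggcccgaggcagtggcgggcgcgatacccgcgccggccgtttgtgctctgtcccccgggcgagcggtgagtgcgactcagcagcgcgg

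The Foxa2 stretch held the forkhead word TGTTTGT, whose first base stands 173 bases before the start, and a CCAAT box on the opposite strand that begins 68 bases before it. The forkhead words searched were TGTTTAC or TGTTTAT, and likewise TGTTTGC or the form TGTTTGT, and 15.7% of 32851 RefSeq windows of the same length held one of them. CCAAT was present in 33.8% of these windows. The other words searched on both strands were the GC box GGGCGG (32.7% of windows), the homeodomain core TAATTA (4.84%), the RFX half-site GTTGCC (10.4%) and TATAAA (12.4%). The Nkx6-1 stretch matched none of the words. The share of G and C bases was 50.8% in the Foxa2 stretch and 65.2% in that of Nkx6-1. For Rfx6 the RefSeq table held a window at a start 7758 bases inside the gene, where no peak was listed, and its sequence is not shown.

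The regions away from promoters lay farther out. One Nkx6-1 region at chr5:101645339-101645939 was 13245 bases beyond the end of the gene, and a long non-coding RNA gene, Gm42132, was nearer at 4355 bases. The other, at chr5:101700455-101701055, was 35744 bases upstream of Nkx6-1 and 2494 bases from the long non-coding RNA gene 9430085M18Rik. A gene listed as protein-coding, Gm42134, was also nearer than Nkx6-1, at 22044 bases. The Rfx6 region at chr10:51727783-51728383 was in intron 18 of 18 per the authors' annotation, centred 50.3 kb into the gene. The map of the peaks shows these distances.

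**Figure D1:**
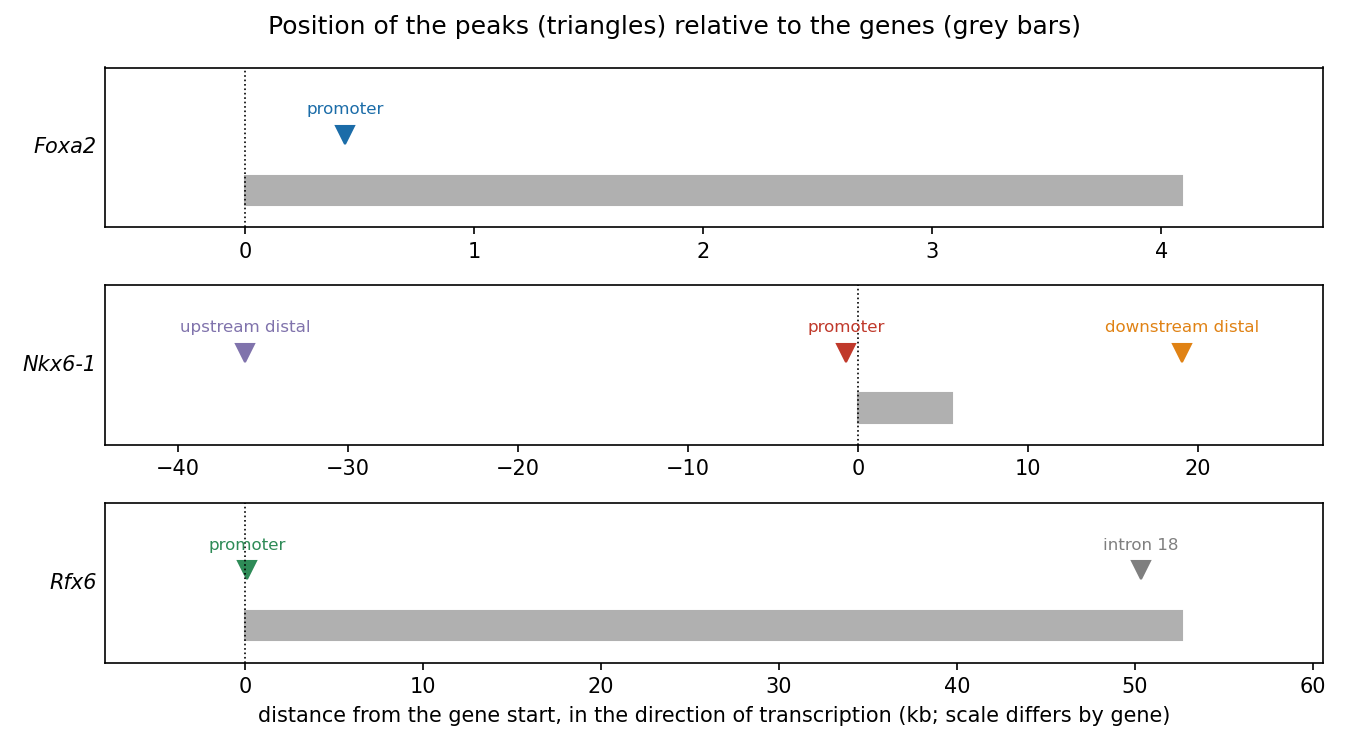
Position of the 6 regions (triangles) relative to the gene bodies (grey bars), in kb from the gene start in the direction of transcription, with a separate scale for each gene. The promoter regions sit within 1 kb of the start, and the Nkx6-1 intergenic regions flank the gene on both sides.

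In the 4 deposited comparisons, accessibility is given as the log2 concentration of each group, the authors' mean normalized read number at a peak. Values per mouse were not analysed here. The errors below are standard errors implied by the authors' change and p-value, and the number of libraries in which each peak was called is the closest to a measure per mouse. A peak counts as higher or lower where its deposited FDR is under 0.05.

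After PPx, the 3 promoters were more accessible in βKO than in control islets, by a little over 2-fold. This is the comparison that chose them. In the authors' deposited table, 3 of the 6 regions passed as higher and none as lower. Of all 13111 peaks, 9.88% passed as higher and 0.0839% as lower, and of promoter peaks alone 14.3% passed as higher. The authors' deposited table gave a higher value in βKO islets at 90.3% of peaks, with a median log2 change of 0.61 over all peaks and 0.71 over promoters. All 6 regions had a higher value in βKO islets, and 5 of them lay above the median of all peaks. At an unadjusted p under 0.05 there were 4 of the 6 regions, beside 33.0% of all peaks as higher and 0.526% as lower. The 4 were the 3 promoters and the Nkx6-1 region downstream of the gene. No control library after PPx held a called peak at that region, so it was listed through the group where it is high.

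The authors' deposited table put the Foxa2 promoter at 4.75 in βKO islets and 3.60 in control islets after PPx. The difference was 1.15 ± 0.36 on the log2 scale (implied SE, n = 4 mice each), or 2.22-fold, and the authors' deposited table lists an FDR of 0.0329. The promoter was called as a peak in 4 of 4 βKO libraries and in 1 of 4 control libraries. Its change was 0.54 above the median of all peaks, and 93.6% of promoter peaks had a smaller change.

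At the Nkx6-1 promoter, the authors' deposited table held 4.87 for βKO islets and 3.81 for control islets, which differ by 1.05 ± 0.34 on the log2 scale (FDR 0.036). It was called in 4 of 4 βKO and 2 of 4 control libraries. The change stood 0.44 above the median of all peaks and was larger than that of 88.8% of promoters.

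The Rfx6 promoter had the highest level of the 3 in both genotypes, and the authors' deposited table put it at 5.05 in βKO islets and 4.04 in control islets. These differ by 1.01 ± 0.38 on the log2 scale, and the deposited FDR of 0.0492 lay just inside the threshold. It too was called in 4 of 4 βKO and 2 of 4 control libraries. The change stood 0.40 above the median of all peaks and was larger than that of 86.0% of promoters. In mean concentration, the 3 promoter peaks exceeded between 58.3% and 70.3% of the promoters of this table.

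At all 3 promoters the excess over the median of all peaks was smaller than that median (0.61). Over the 6 regions, the distance from the median was at most 1.75 implied errors. Under stricter rules fewer regions passed. With a Benjamini-Hochberg adjustment of the deposited p over every peak, which 4.13% of peaks passed as higher, Foxa2 alone passed at 0.0461. At an FDR under 0.01, which 0.0229% of peaks passed as higher, none did.

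The regions away from promoters were less alike. The Nkx6-1 intergenic regions had rows only in the pair of tables that include βKO islets after PPx, and no control library after PPx held a called peak at either. They were thus listed through the group where they are high, which favours a large change, and their size is not ranked against the promoters, which were listed in all 4 tables. For the Nkx6-1 region downstream of the gene, the authors' deposited table held a level of 3.85 in βKO islets and 2.33 in control islets after PPx. That is a difference of 1.52 ± 0.52 on the log2 scale. It was called in 2 of 4 βKO and 0 of 4 control libraries. Its deposited FDR was 1 although its p was 0.00338. The authors' deposited table lists an FDR of 1 for 4534 peaks, with a median concentration of 3.17 against 4.23 at the other 8577 peaks. With a Benjamini-Hochberg adjustment over all peaks this region had an adjusted p of 0.0548.

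The Nkx6-1 region upstream of the gene stood at 3.67 in βKO islets and 2.97 in control islets after PPx, per the authors' deposited table. The difference was 0.70 ± 0.46 on the log2 scale, with a deposited FDR of 1. It was called in 3 of 4 βKO and 0 of 4 control libraries, and its change was 0.09 above the median of all peaks.

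The Rfx6 intron region differed least between the genotypes after PPx. The authors' deposited table put it at 4.23 in βKO islets and 3.88 in control islets, a difference of 0.35 ± 0.36 (FDR 0.405). It was called in 4 of 4 βKO and 3 of 4 control libraries. Relative to the median of all peaks its log2 change was -0.26, and relative to the median of peaks outside promoters (0.38) it was -0.03.

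**Figure D2:**
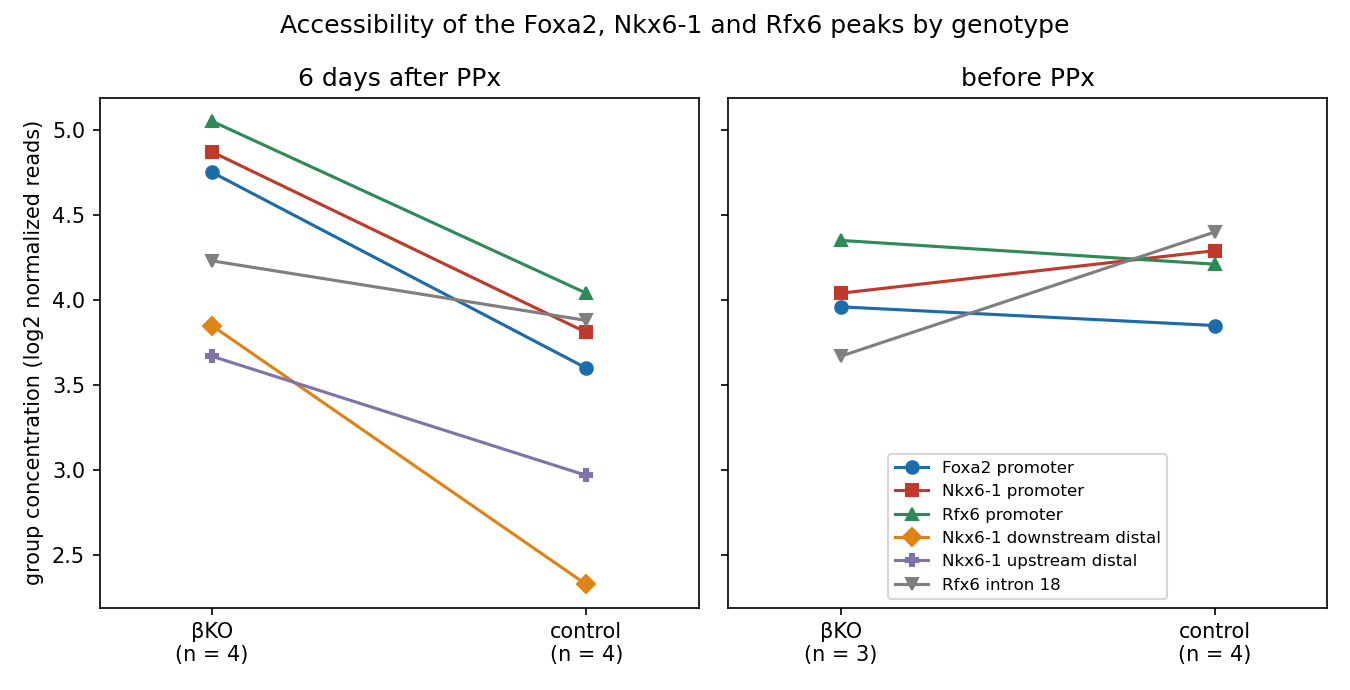
Group concentration (log2 normalized reads, authors' values) of the 6 regions in βKO and control islets, after PPx at left and before PPx at right, with lines joining the genotypes at the same region. After PPx all 6 regions are higher in βKO islets, while before PPx the 4 listed regions go in both directions.

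Before PPx the libraries were other than those that chose the genes, and here none of the regions separated the genotypes. In the authors' deposited table, which the submitters' processing notes tie to DiffBind, 0 of the 4 listed regions passed the FDR of 0.05, beside 0.0128% of all 7826 peaks as higher and 0.0% as lower. No region had an unadjusted p under 0.05, beside 0.843% of all peaks as higher and 2.3% as lower. The Nkx6-1 intergenic regions had no row in this table.

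The Foxa2 promoter stood at 3.96 in βKO islets and 3.85 in control islets before PPx, per the authors' deposited table. The difference was 0.11 ± 0.45 on the log2 scale (implied SE, n = 3 βKO and 4 control mice), and the peak was called in 2 of 3 βKO and 1 of 4 control libraries. For the Rfx6 promoter the authors' deposited table held 4.35 for βKO islets and 4.21 for control islets, a difference of 0.14 ± 0.41, and the peak was called in 2 of 3 βKO and 4 of 4 control libraries. The Nkx6-1 promoter had the opposite sign, at 4.04 in βKO islets and 4.29 in control islets per the authors' deposited table. The log2 change was -0.24 ± 0.41, and the peak was called in 2 of 3 βKO and 3 of 4 control libraries. All 3 differences were smaller than their errors, which were taken from peaks of like concentration. This does not show that the promoters were alike.

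The Rfx6 intron region had the largest difference of the 4 before PPx, and its value was lower in βKO islets. The authors' deposited table put it at 3.67 in βKO islets and 4.40 in control islets. The log2 change was -0.73 ± 0.45, with a deposited p of 0.101 and an FDR of 1, so it did not pass. It was called in 2 of 3 βKO and 4 of 4 control libraries. Of the peaks outside promoters, 12.8% had a lower change, and their median was -0.12. In an approximate normal test against the median of all peaks, which was 0.00, the smallest Benjamini-Hochberg adjusted p of the 4 regions was 0.998.

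Within Rfx6, the promoter change was the higher one in both genotype comparisons. After PPx the choice of the genes by their promoters favours this, so that value is a description only. It exceeded the intron change by 0.66 ± 0.52 after PPx and by 0.87 ± 0.60 before PPx on the log2 scale, with errors that take the peaks as independent. Both differences were under 1.5 times these errors. Promoters as a class also had the higher changes, with medians of 0.71 against 0.38 at other peaks after PPx and 0.04 against -0.12 before PPx. Relative to the median of its own class, the promoter exceeded the intron region by 0.33 after PPx and by 0.71 before PPx. The intron region had the higher level in control islets before PPx, at 4.40 against 4.21 at the promoter. It had the lower level in βKO islets after PPx, at 4.23 against 5.05 at the promoter.

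The genotype difference had a larger value after PPx than before at each of the 4 regions listed at both times. After minus before, it was 1.04 ± 0.57 at the Foxa2 promoter, 1.29 ± 0.54 at the Nkx6-1 promoter, 0.87 ± 0.56 at the Rfx6 promoter and 1.08 ± 0.57 at the Rfx6 intron region. Relative to the medians of the tables these values were 0.43, 0.68, 0.26 and 0.47. The order among the regions lies within the errors. No test was made, since the genotype difference after PPx chose the genes.

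In βKO islets, all 6 regions had higher values after PPx than before, and none passed the threshold. This comparison shares the βKO libraries after PPx with the one that chose the genes. In the authors' deposited table, made with DiffBind per the notes, 0 of 6 regions passed the FDR of 0.05, beside 7.44% of all 12767 peaks as higher and 0.0% as lower. At an unadjusted p under 0.05 there were 5 of 6 regions, beside 39.4% of all peaks as higher and 0.0235% as lower. The 5 were the promoters and the Nkx6-1 intergenic regions. Those intergenic regions were listed mainly through the βKO libraries after PPx, which favours a high count, so the count supports nothing. A higher value after PPx was the rule over the whole table, at 97.1% of all peaks, with a median log2 change of 0.83.

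The authors' deposited table put the Nkx6-1 promoter in βKO islets at 4.84 after and 3.86 before PPx, a difference of 0.99 ± 0.39 (FDR 0.0628). At the Foxa2 promoter the authors' deposited table held 4.72 after and 3.74 before PPx, a difference of 0.98 ± 0.40 (FDR 0.0698). The Rfx6 promoter stood at 5.05 after and 4.12 before PPx per the authors' deposited table, a difference of 0.93 ± 0.43 (FDR 0.0903). Each of the 3 promoters was called in 4 of 4 βKO libraries after PPx and in 2 of 3 before. Their changes were 0.16, 0.15 and 0.10 above the median of all peaks, less than the errors.

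The Nkx6-1 intergenic regions were listed here too mainly through the βKO libraries after PPx, with the same limit on the size of their change. The downstream region stood at 3.85 after and 2.54 before PPx in βKO islets per the authors' deposited table, a difference of 1.31 ± 0.60 (FDR 0.0877). For the upstream region the authors' deposited table held 3.67 after and 2.43 before PPx, a difference of 1.23 ± 0.62 (FDR 0.111). The downstream region was called in 2 of 4 βKO libraries after PPx and 0 of 3 before, and the upstream region in 3 of 4 after and 1 of 3 before. The Rfx6 intron region stood at 4.23 after and 3.41 before PPx per the authors' deposited table, a difference of 0.81 ± 0.44 (FDR 0.131), which was -0.02 relative to the median. The approximate adjusted p relative to the median was 1 for all 6 regions.

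In control islets, the values after and before PPx lay close together at the 4 listed regions. This comparison shares the control libraries after PPx with the one that chose the genes. In the authors' deposited DiffBind comparison, 0 of 4 regions passed the FDR of 0.05, beside 0.0% of all 8070 peaks in either direction. No region had an unadjusted p under 0.05, beside 2.43% of all peaks as higher and 0.0991% as lower. The Rfx6 promoter stood at 4.08 after and 4.05 before PPx, and the Foxa2 promoter at 3.65 after and 3.69 before, per the authors' deposited table. The Nkx6-1 promoter stood at 3.79 after and 4.01 before PPx per the authors' deposited table, with a log2 change of -0.22 ± 0.38. The Rfx6 intron region had the lowest change, -0.27 ± 0.35, with 3.90 after and 4.18 before PPx in the authors' deposited table.

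All 4 regions lay below the median log2 change of 0.16 in control islets, by between 0.13 and 0.43, and the smallest approximate adjusted p relative to it was 1.00. The choice of the genes favours low control values after PPx at the promoters, so this side of the median supports nothing there. At the Foxa2 promoter 1 of 4 control libraries held a called peak at either time. At the Rfx6 promoter 2 of 4 did after PPx and 4 of 4 before, and at the Nkx6-1 promoter 2 of 4 after and 3 of 4 before. The Nkx6-1 intergenic regions had no row in this table.

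**Figure D3:**
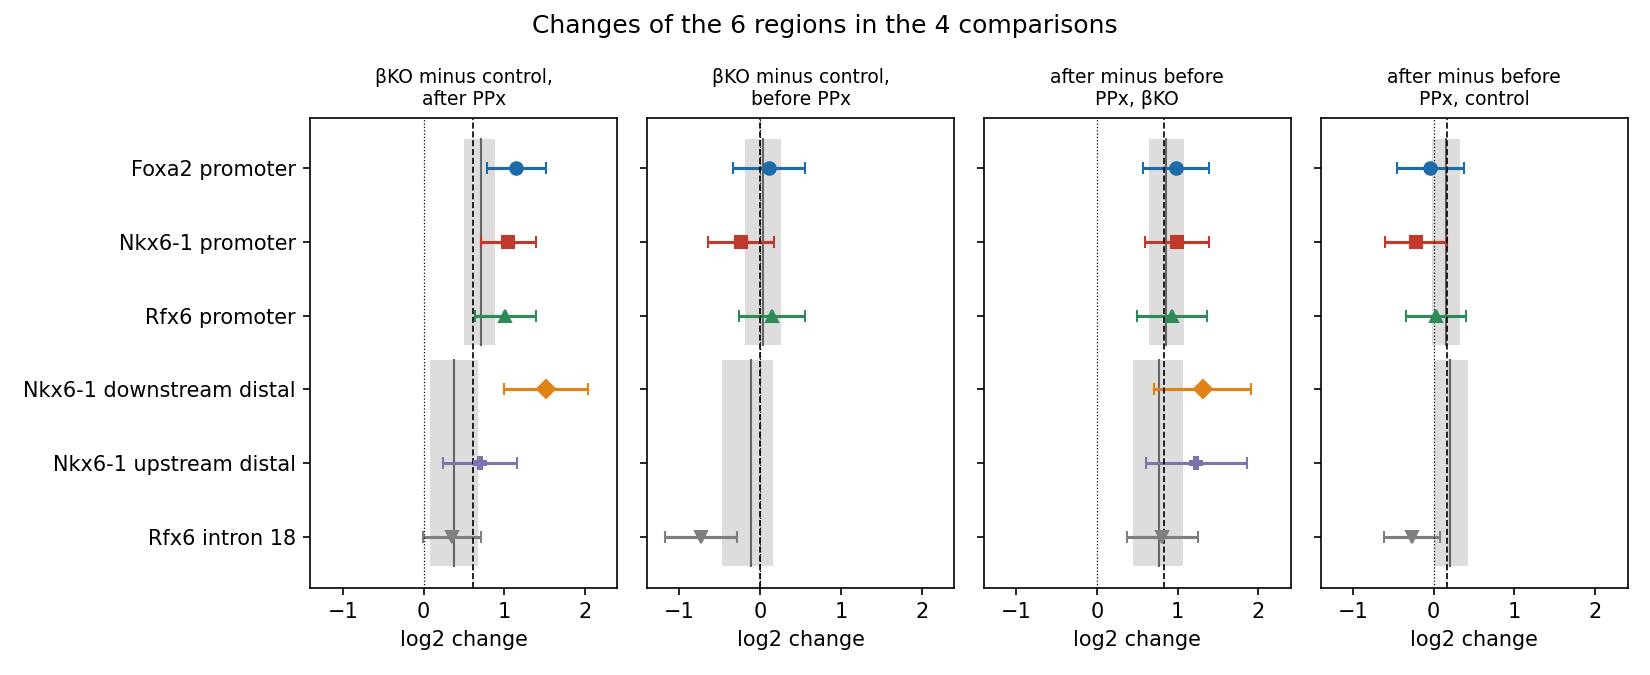
Log2 change of each region in the 4 comparisons (points, with the implied SE as bars), with the quartile range of all promoter peaks behind the promoters and that of all other peaks behind the other regions (grey, grey line at its median). The dashed line is the median of all peaks and the dotted line is 0. The promoters lie to the right of the dashed line after PPx between genotypes, near it in βKO islets over time, and left of it in control islets. The choice of the genes favours the right side between genotypes after PPx and the left side in control islets.

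Set in order of level, βKO islets after PPx stood highest at each of the 3 promoters, as the choice of the genes favours. The ranks below it join levels of different tables. At Foxa2 the genotype tables gave 3.96 in βKO islets before PPx, 3.85 in control islets before PPx and 3.60 in control islets after PPx, neighbours that differ by less than the implied errors, and the tables of times gave the same order. At Nkx6-1 control islets before PPx came next at 4.29, then βKO islets before PPx at 4.04 and control islets after PPx at 3.81, again in the same order in the tables of times. At Rfx6 the order of the control groups turned with the table. The genotype tables gave 4.04 in control islets after PPx and 4.21 before, while the table that compares these groups directly gave 4.08 after and 4.05 before. At the Rfx6 intron region βKO islets before PPx were lowest in both kinds of table, at 3.67 and 3.41. Which group was highest there turned with the table, since βKO islets after PPx stood at 4.23 in both and control islets before PPx at 4.40 in the genotype table and 4.18 in the table of times. Levels from different tables are not strictly on 1 scale. In the 4 regions listed in all tables, the βKO group before PPx read 0.18 to 0.26 higher in the genotype table than in the table of times, and the control group before PPx 0.16 to 0.28 higher. The groups after PPx differed by at most 0.03 (βKO) and 0.05 (control) between the tables.

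Other islet transcription factor genes were measured in the same tables, from a list of 36 genes chosen with earlier results of these data known. Peaks were present for 13 of them, and the other 23, among them Pdx1 and Neurod1, were not analysed here. After PPx, 0 of the other 10 genes with a peak passed between the genotypes in the authors' deposited DiffBind table, and 4 of their 20 peaks had an unadjusted p under 0.05. Of all peaks, 9.88% passed as higher, and 33.0% were higher and 0.526% lower at that unadjusted p. Their 8 promoter peaks had a median log2 change of 0.63, against 0.71 for all promoters. That Foxa2, Nkx6-1 and Rfx6 stand at the top of the list follows from how they were chosen. Setting aside genes chosen in this comparison also favours a count of 0 and a lower median among the rest. Those values are therefore a description only.

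The next promoter in that comparison was that of Isl1, a LIM-homeodomain factor of islet endocrine cells. The authors' deposited table put it at 4.63 in βKO islets and 3.78 in control islets after PPx, a difference of 0.85 (FDR 0.0648). Bach2, a leucine zipper repressor, and Pax6, a paired-box factor of endocrine cells, had changes of 0.71 (FDR 0.129) and 0.69 (FDR 0.103) in the authors' deposited table. The lowest promoter changes belonged to the ETS factor gene Etv1, to Mafa, an activator of insulin transcription, and to Rfx3, a relative of Rfx6. Etv1 had a pair of promoter peaks at -0.36 (FDR 1) and 0.54 (FDR 0.255), while Mafa stood at 0.38 (FDR 0.455) and Rfx3 at 0.63 (FDR 0.199) in the authors' deposited table. The St18 promoter had the same change as that of Rfx3.

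Before PPx, 0 of the other 8 listed genes passed in the authors' deposited DiffBind table, and 2 of their 12 peaks had an unadjusted p under 0.05. Both were intergenic and higher in βKO islets. Of all peaks, 0.0128% passed as higher, and 0.843% were higher and 2.3% lower at that unadjusted p. Promoter changes were highest at Bach2 (0.43), Pax6 (0.29) and Rfx3 (0.24) in the authors' deposited table, which lists 1 as the FDR of each. They were lowest at St18 (-0.29), Etv1 (-0.25) and Nkx6-1 (-0.24) in the authors' deposited table, again with FDR values of 1.

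In βKO islets over time, 5 of the 18 peaks of the other 10 genes had an unadjusted p under 0.05. Of all peaks, 39.4% did so as higher and 0.0235% as lower. The promoter of St18, a zinc finger factor, was the only peak of the list that passed, beside 7.44% of all peaks as higher. The authors' deposited table put it at 5.19 after and 3.87 before PPx, a difference of 1.32 (FDR 0.0374). The next promoter changes were those of Nkx6-1 and Foxa2, given above, and the lowest were those of Bach2 (0.33), Rfx3 (0.53) and Pax6 (0.59) in the authors' deposited table. In control islets over time, 0 of the other 8 genes passed in the authors' deposited DiffBind table and 1 of their 11 peaks had an unadjusted p under 0.05. Of all peaks, 0.0% passed in either direction, and 2.43% were higher and 0.0991% lower at that unadjusted p. Within the list, the lowest promoter changes in control islets were those of Isl1 (-0.26), Nkx6-1 and Foxa2. The highest were those of St18 (0.38), Pax6 (0.19) and Etv1 (0.19) in the authors' deposited table.

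**Figure D4:**
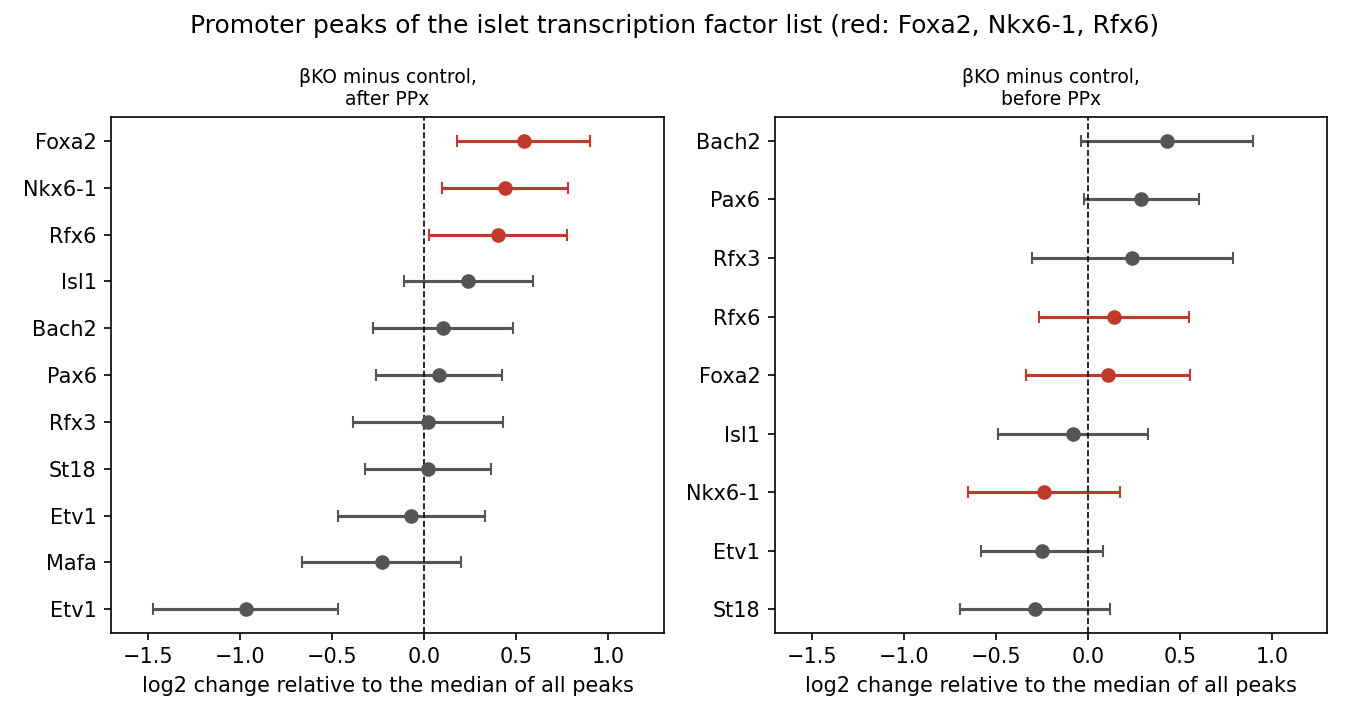
Log2 change relative to the median of all peaks (points, with the implied SE as bars) for every promoter peak of the islet transcription factor list, between βKO and control islets after PPx at left and before PPx at right. Foxa2, Nkx6-1 and Rfx6 (red) head the list after PPx, in the comparison that chose them, and are spread among the other genes before PPx.

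Promoters of other genes came close to the members' values over the 4 comparisons. Among 4251 promoter regions listed in all 4 tables, with predicted genes left out, likeness was measured as the Euclidean distance over the 4 log2 changes, each relative to its table's median. The nearest promoters to that of Foxa2 were Cfdp1, Trappc9 and Cyb5r4, at distances of 0.037, 0.062 and 0.076. For Nkx6-1 they were Trio, Zfp691 and Tbc1d17, at 0.065, 0.081 and 0.092. For Rfx6 they were Txn1, Hif3a and Stom, at 0.053, 0.062 and 0.062. Foxa2 and Rfx6 were 0.17 apart. At a smaller distance, 24 other promoters lay nearer to Foxa2 and 87 nearer to Rfx6. Nkx6-1 stood 0.41 from Foxa2 and 0.46 from Rfx6, with 444 and 660 other promoters nearer to it. Seen from the other side, 604 promoters were nearer to Foxa2 than Nkx6-1 was, and 1376 were nearer to Rfx6. The 4 comparisons share groups, so these distances rest on fewer than 4 independent values.

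Markers of the cell types that islets could hold were also listed. Of 7 β cell marker genes, 4 had a peak in the genotype comparison after PPx, among them the insulin gene Ins1, and 3 of 6 genes of the other endocrine cells did, among them the glucagon gene Gcg and the somatostatin gene Sst. No peak was listed for the 9 acinar and 5 duct markers in any comparison. For 3 of 5 endothelial, 1 of 5 stromal and 2 of 7 leukocyte markers a peak was listed in the genotype comparison after PPx. The log2 of the summed levels of the β cell list was 7.30 in βKO islets and 6.65 in control islets after PPx. It was 6.32 in βKO and 5.57 in control islets for the other endocrine list, and 5.79 in βKO and 5.74 in control islets for the endothelial list. For the stromal list it was 5.18 in βKO and 4.68 in control islets, and for the leukocyte list 4.77 in βKO and 4.16 in control islets. Relative to the median of all peaks (0.61), the median change of these lists was -0.05, 0.215, -0.40, -0.14 and 0.065, in that order. The β cell peaks were not alike, with changes from -0.15 at an Slc30a8 intron to 1.49 at the Ins1 promoter. The part of cell composition in the values above was not tested.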

How the data were processed

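Islets of 15 mice in 4 groups were profiled by ATAC-seq, and 4 tables of group comparisons were used. Tools named by the submitters' processing notes are BWA, ChIPseeker, cutadapt, DiffBind and MACS, with mm10 (GRCm38) as the build. Versions, settings, normalization and any Tn5 shift were not given in the sources used here. The log2 concentration per group, the log2 fold, the p-value and the FDR are as deposited by the authors, per the file headers. The count of libraries with a called peak is also the authors' own, per the file headers. Indexed libraries shared a flow cell, per the labels' protocols.

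The deposited fold has control or the time before PPx on top, so changes here are its negative. Repeats of a position were merged and an empty row was removed. The depth of each library is unknown. The standard error of a peak is its log2 change divided by the normal quantile of its p-value. Where p was 0.5 or more, or the change under 0.1, the median error of peaks of like concentration (20 bins) was taken. With it, each change was set against the median of its table by an approximate normal test over all peaks, with Benjamini-Hochberg adjustment. The steps were run on simulated data whose planted changes were far larger than those of the members. The simulated noise came from the same implied errors. The simulation therefore cannot show how the test does at changes of the members' size, or whether the errors are right. Regions of different tables were matched at 1 bp of overlap or more. Members and lists were chosen with earlier results of these data known. From the transcription factor list the text names genes with a peak that passed and the 3 highest and 3 lowest promoter changes per comparison. For each member it names the 3 promoters of most similar pattern. Python 3.11.15 was used with pandas 2.3.3, numpy 2.4.6, scipy 1.17.1 and matplotlib 3.10.9.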

Additional observations from a re-analysis of the deposited data

How the results depend on the processing

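The number of the 6 regions called between genotypes after PPx, 3 in the authors' tables, depended on the adjustment. It was 1 (Foxa2) with a Benjamini-Hochberg adjustment over every listed peak, where Nkx6-1 and Rfx6 had adjusted p-values of 0.0502 and 0.0687, and 0 at an FDR of 0.01. With adjustment over peaks at or above the median concentration it stayed at 3, and counting every deposited row gave 6, since peaks are repeated. In the other comparisons the count was 0 under all 4 of these settings. No share of all peaks is given for these settings there, so the counts of 0 say nothing particular to the members. Between genotypes after PPx, the share of all peaks that passed is not given for the adjustment above the median concentration or for every deposited row. The counts under those settings therefore have no background beside them. Of 20 changes relative to the table's median, 1 changed sign against the median of the same class (Rfx6 intron, βKO over time), 0 against the median of peaks of like concentration (10 bins), and 3 without centring (the Rfx6 promoter in control islets over time, and the Rfx6 intron after PPx between genotypes and in βKO islets over time). The 4 regions found in all tables also shared 300 bp or more. No library could be left out, because the tables hold groups only. No paired analysis was possible because the columns hold groups and the libraries' numbers are not shared between groups.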
